A study of Mus musculus with 21 samples.

Results

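The genes of the bone morphogenetic protein (BMP) and transforming growth factor beta (TGF-beta) pathway were followed through mouse outer ear development and across arches that lacked a regulatory element of the Hoxa genes. Members were chosen by gene symbol, with earlier results of these data known. The list comprised BMP, GDF and TGF-beta ligands, activin subunits, their receptors, the Smad transducers and the secreted antagonists. They were 52 of the 24594 genes counted in each of 2 RNA-seq tables. A test required 1 CPM (counts scaled to library size) or more in at least 2 libraries, which left 41 members in the stage series and 38 in the genotype series.

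BMPs and TGF-betas are secreted dimers that bring together type I and type II receptor kinases at the cell surface. BMP receptors activate Smad1, Smad5 and Smad9, whereas TGF-beta and activin receptors activate Smad2 and Smad3, and both groups enter the nucleus with Smad4. Antagonists such as Grem1, Chrd, Nog and Fst bind the ligands outside the cell, and in the pharyngeal arches the pathway is known for its roles in skeletal and soft tissue patterning of the neural crest mesenchyme.

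The stage series held cranial neural crest cells sorted for a red fluorescent reporter (Wnt1::Cre;ROSA RFP, in which Cre from the Wnt1 promoter marks crest descendants). Cells of the second pharyngeal arch (PA2) were taken at embryonic day E10.5, and cells of its later derivative, the pinna (external ear), at E12.5 and at E14.5. The genotype series held PA2 and the third arch (PA3) at E10.5, either WT (wild type) or homozygous for a deletion of HIRE1 (HIRE1del/del, here HIRE1del), a distant regulatory element that contacts the Hoxa cluster. The deletion was made by CRISPR in C57Bl/6J mice, embryos had a mixed C57Bl/6J;CD1 background, both sexes were pooled, and each of the 7 groups had 3 libraries, described as independent biological replicates.

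Libraries held 25.8 to 49.1 M counts in the stage series, with the 3 of E14.5 the deepest (47.5 to 49.1 M), and 25.8 to 32.2 M in the genotype series. Members took 0.271 to 0.470% of the counts of a stage library and 0.224 to 0.263% of a genotype library. Hoxa2, the Hoxa gene of PA2, was at 73.4 to 84.2 CPM in PA2 WT and at 4.75 to 7.10 CPM in PA2 HIRE1del, in accord with the genotype labels. Every library is labelled as crest cells, but a sort is stated only for embryos with the reporter, and the summed level of 8 epithelial markers was 256 to 287 CPM in PA2 WT of the genotype series and 11.2 to 13.1 CPM in E10.5 PA2 of the stage series, in tables that were normalised separately. All tests were made within a table. In these bulk libraries, fewer cells of a type and less RNA per cell cannot be told apart.

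Pathway genes mostly rose from PA2 to the pinna. From E10.5 PA2 to E12.5 pinna, 24 of 41 members rose (58.5%) and 5 fell (12.2%) at an adjusted p under 0.05 (edgeR quasi-likelihood test, Benjamini-Hochberg), where 35.0% of all 13438 genes tested rose and 33.7% fell. With a change of at least 2-fold as well, 16 members rose and 2 fell, against 14.8% and 6.79% of all genes. From E12.5 to E14.5, 20 members rose (48.8%) and 14 fell (34.1%), against 32.6% and 33.1% of all genes, and 10 and 2 did so by at least 2-fold (12.2% and 7.53% of all genes), or 9 and 4 with total counts as the scaling. Between E10.5 and E14.5, 28 rose and 10 fell (42.0% and 40.0% of all genes), of which 20 and 5 changed at least 2-fold (23.1% and 16.2%). The median log2 fold change of the tested members was 0.67 in the first step, 0.17 in the second and 0.78 over both, beside medians of 0.01, -0.01 and 0.02 over all genes. The 3 comparisons share libraries, so that a high or low E12.5 group enters both steps. Members tested only because they were high in a single group had to differ, and 33 members remained when 1 CPM was required in every library, of which 29 were called between E10.5 and E14.5. The E14.5 cells were dissociated with papain rather than trypsin and sequenced more deeply, and these cannot be told apart from the stage.

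**Figure D1:**
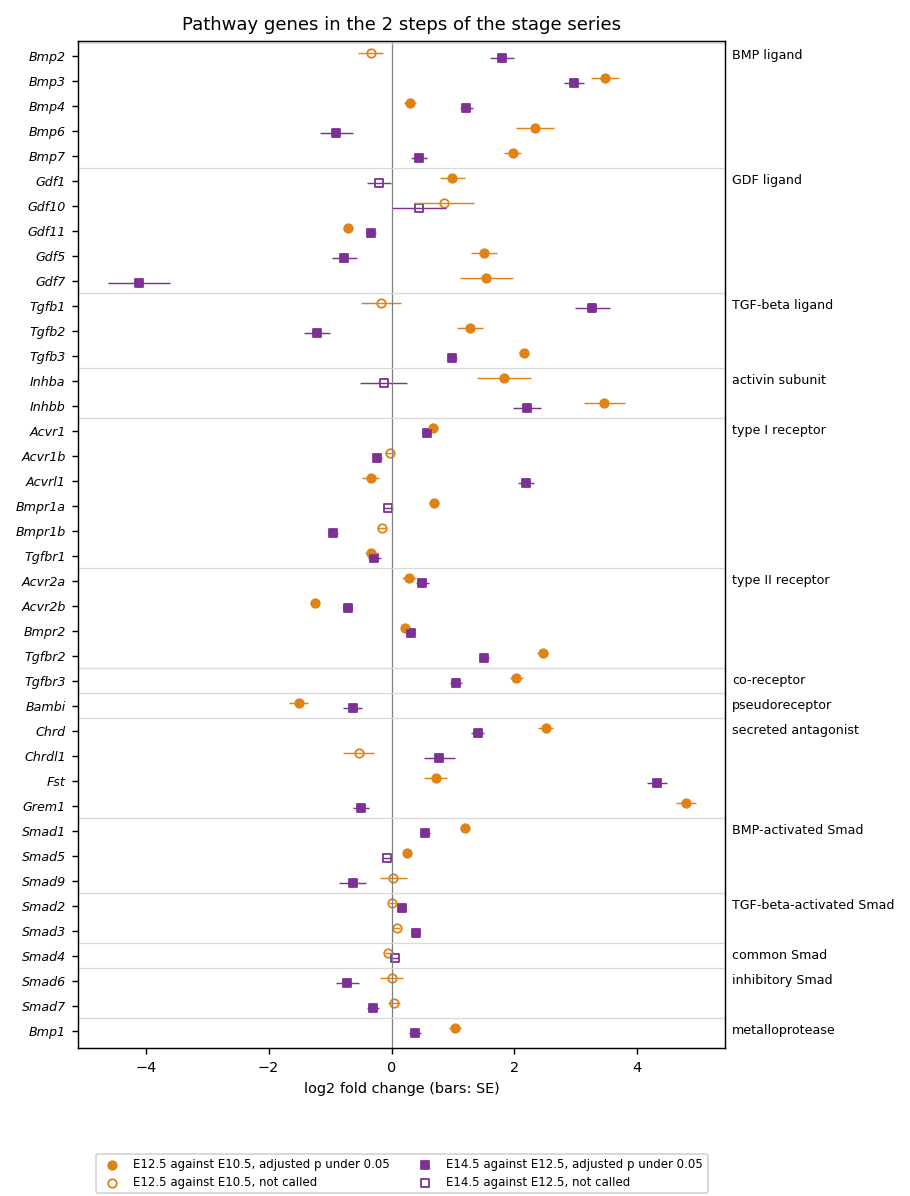
Log2 fold change (x axis, bars are the SE) of 40 of the 41 tested members, grouped by role, for E12.5 pinna against E10.5 PA2 (orange circles) and E14.5 against E12.5 pinna (purple squares), with filled symbols for an adjusted p under 0.05. Most filled symbols lie to the right of 0, Grem1 rose only in the first step, and Fst and Tgfb1 rose mainly in the second.

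Among the BMP ligands reported here, Bmp3 changed most. Bmp3, an unusual BMP that dampens signalling by other BMPs, was at 0.703, 1.78 and 2.09 CPM in the E10.5 libraries, at 15.3, 17.4 and 18.7 CPM at E12.5 and at 134, 121 and 148 CPM at E14.5. The 3 stages did not overlap, and its log2 fold change over both steps was 6.45 ± 0.221 (SE; edgeR adjusted p = 3.26e-10). Bmp7, a broadly expressed ligand that can pair with Bmp2 or Bmp4, was at 5.69, 9.23 and 8.56 CPM at E10.5, at 30.6, 32.4 and 28.8 CPM at E12.5 and at 42.8, 40.3 and 42.2 CPM at E14.5. Its rise was concentrated in the first step, at 1.97 ± 0.140 on the log2 scale, followed by 0.45 ± 0.126 (edgeR adjusted p = 3.41e-07 and 0.00861).

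Bmp4, a main BMP of the facial primordia, rose late. Its libraries were at 18.9, 18.1 and 24.7 CPM at E10.5, at 26.0, 26.0 and 24.1 CPM at E12.5 and at 57.7, 60.0 and 59.8 CPM at E14.5. The first 2 stages overlapped, and the log2 fold change of 0.30 ± 0.105 (edgeR adjusted p = 0.0246) was not called without replicate 1 or 2 of E10.5 or without replicate 1 or 2 of E12.5, with adjusted p between 0.0608 and 0.106. The second step gave 1.22 ± 0.102 (SE; edgeR) and was called, with every E14.5 library above every E12.5 library. Bmp2, the closest relative of Bmp4, was at 4.06 ± 0.586, 3.22 ± 0.553 and 11.3 ± 2.23 CPM (mean ± SD, n = 3) and rose in the second step by 1.80 on the log2 scale. Bmp6 rose and then fell, from 0.370 to 1.88 and 1.00 CPM, at levels near the filter. Of its 3900 exonic bases, 224 are shared with Txndc5 on the other strand.

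Of the GDF ligands, Gdf5 and Gdf7, which act on joints, tendons and neural tissue, peaked at E12.5. Gdf5 was at 4.75, 7.07 and 8.30 CPM at E10.5, at 23.0, 17.4 and 17.1 CPM at E12.5 and at 13.3, 11.5 and 8.87 CPM at E14.5. The E12.5 libraries lay above all others, with log2 fold changes of 1.51 ± 0.212 into and -0.77 ± 0.201 out of that stage (edgeR adjusted p = 6.74e-05 and 0.00576). The 2320 exonic bases of Gdf5 share 936 with a gene on the opposite strand, whose reads cannot be told apart in libraries described as unstranded. Gdf7 was at 1.22 ± 0.677, 3.53 ± 0.471 and 0.200 ± 0.126 CPM, and its fall from E12.5 to E14.5 was -4.11 ± 0.510 on the log2 scale (edgeR adjusted p = 3.17e-05). Gdf11, an axial patterning ligand that signals through activin receptors, fell in both steps, from 94.5 ± 5.21 to 57.6 ± 5.04 and 45.8 ± 3.66 CPM. Gdf1 rose in the first step by 0.99 on the log2 scale. The Gdf1 entry joins separate Ensembl identifiers, and its overlaps with other genes were not examined.

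The 3 TGF-beta ligands followed 3 courses. Tgfb3, known for its part in palate fusion, was at 21.6, 26.0 and 24.9 CPM at E10.5, at 109, 107 and 107 CPM at E12.5 and at 221, 202 and 218 CPM at E14.5. It rose in both steps with no overlap, by 2.15 ± 0.0739 and 0.99 ± 0.0689 on the log2 scale (edgeR adjusted p = 1.90e-09 and 3.68e-07). Of the 3383 exonic bases of Tgfb3, 163 and 257 are shared with Gm37804 and Gm48008 on the other strand. Tgfb2 was at 18.3, 21.6 and 26.5 CPM, then at 36.1, 70.6 and 54.0 CPM, and then at 21.3, 26.0 and 22.2 CPM. Only its E12.5 libraries stood apart, and they spread widely among themselves, so that the step up (1.28 ± 0.211) and the step down (-1.21 ± 0.207) left E14.5 and E10.5 overlapping (edgeR adjusted p = 2.35e-04, 3.61e-04 and 0.769). Tgfb1 was below 1 CPM in each E10.5 and E12.5 library and at 6.06, 4.44 and 8.25 CPM at E14.5. Its log2 fold change in the second step was 3.27 ± 0.281 (edgeR adjusted p = 1.86e-06), with E14.5 apart. The level of Ptprc, which marks leukocytes, was 0.0890 CPM at E12.5 and 1.47 CPM at E14.5. Ptprc belongs to a list of 8 blood markers, of which 4 were tested, and 2 rose and 2 fell in that step. The part of blood cells in the Tgfb1 value was not tested.

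The activin subunits also rose. Inhbb, which encodes the beta B chain of activin and inhibin, was at 0.268, 0.275 and 0.229 CPM at E10.5, at 3.30, 2.25 and 3.06 CPM at E12.5 and at 13.3, 9.36 and 17.2 CPM at E14.5. No stages overlapped, and the log2 fold change over both steps was 5.67 ± 0.310 (edgeR adjusted p = 1.21e-08). Inhba, the beta A chain, rose in the first step only, from 0.590 ± 0.231 to 2.11 ± 0.713 CPM.

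**Figure D2:**
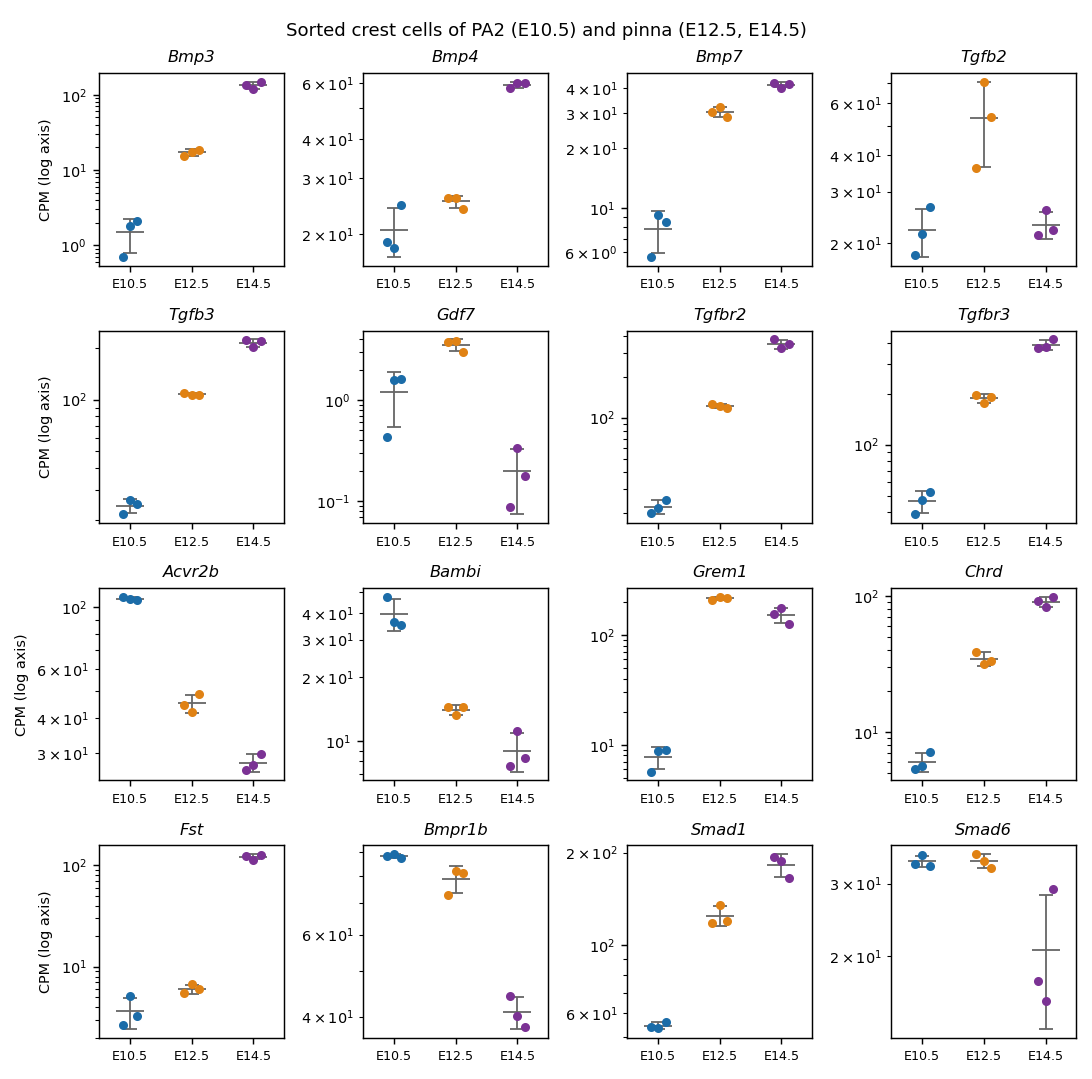
CPM on log axes (a separate range in each panel) for 16 members in the 9 libraries of the stage series, with a point per library and a bar for the mean ± SD of 3. Bmp3, Tgfb3, Tgfbr2, Tgfbr3 and Chrd climb at each stage, Tgfb2 and Gdf7 peak at E12.5, Grem1 jumps at E12.5, Fst and Bmp4 jump at E14.5, and Acvr2b and Bambi fall.

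Receptor genes moved in opposite directions within a class. Tgfbr2, the type II receptor that binds TGF-beta itself, was at 19.8, 21.7 and 24.9 CPM at E10.5, at 126, 122 and 118 CPM at E12.5 and at 375, 322 and 344 CPM at E14.5. The stages were far apart, with log2 fold changes of 2.46 ± 0.0896 and 1.51 ± 0.0834 (edgeR adjusted p = 2.88e-09 and 6.41e-08). Tgfbr3 (betaglycan), the co-receptor that presents TGF-beta2 to Tgfbr2, was at 38.8, 47.1 and 52.7 CPM, then at 197, 175 and 192 CPM, and then at 371, 377 and 418 CPM. It too rose in both steps with no overlap, by 2.03 ± 0.104 and 1.05 ± 0.0988 on the log2 scale. Tgfbr1, the type I partner of Tgfbr2, went the other way, from 360 ± 39.1 to 287 ± 38.5 and 236 ± 13.1 CPM. Over both steps its log2 fold change was -0.61 ± 0.102 (edgeR adjusted p = 1.58e-04), while the calls of the single steps were each lost on leaving out single libraries, with adjusted p of 0.0545 to 0.0571 in the first and 0.0526 to 0.126 in the second.

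The activin type II receptors diverged. Acvr2b was at 109, 107 and 106 CPM at E10.5, at 44.7, 42.0 and 48.7 CPM at E12.5 and at 26.0, 27.1 and 29.8 CPM at E14.5. Each step lowered it with no overlap, and it was at 25.8% of its E10.5 level by E14.5 (log2 fold change -1.96 ± 0.0734; edgeR adjusted p = 6.49e-10). Its paralog Acvr2a rose over the same span by 0.78 on the log2 scale, from 55.1 ± 5.42 to 94.4 ± 10.4 CPM, with 446 of its 5686 exonic bases shared with Orc4 on the other strand. Per exonic kilobase, Acvr2b was ahead at E10.5 (27.3 ± 0.452 against 9.69 ± 0.953 RPKM) and Acvr2a at E14.5 (16.6 ± 1.83 against 7.04 ± 0.504 RPKM). Bmpr2, the BMP type II receptor, rose mildly, from 162 ± 4.76 to 188 ± 10.6 and 234 ± 16.5 CPM.

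The BMP type I receptors likewise parted. Bmpr1a was at 382, 358 and 362 CPM at E10.5, at 529, 656 and 595 CPM at E12.5 and at 563, 615 and 541 CPM at E14.5. It rose in the first step (0.69 ± 0.0807; edgeR adjusted p = 1.61e-05), and the later stages overlapped. Bmpr1b, which is known from cartilage condensations, was at 88.5, 89.1 and 87.4 CPM, then at 72.8, 82.1 and 81.4 CPM, and then at 44.3, 40.2 and 38.0 CPM. The second step gave -0.95 ± 0.0713 (edgeR adjusted p = 6.52e-07), whereas the first step of -0.16 ± 0.0704 was not called (adjusted p = 0.0565). The summed level of 8 cartilage markers was 1840 to 1890, 854 to 899 and 579 to 599 CPM at the 3 stages, much of it from Col2a1 (mean 1090, 578 and 235 CPM). Of the 5 tested, 0 rose and 4 fell in the first step, whereas 3 rose and 2 fell in the second, and their relation to Bmpr1b was not tested.

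Acvr1 and Acvrl1, further type I receptors, ended higher. Acvr1 rose in both steps, from 19.7 ± 1.21 to 31.3 ± 3.05 and 46.4 ± 0.540 CPM. Acvrl1, best known from vascular endothelium, was at 9.70, 9.92 and 10.2 CPM at E10.5, at 8.62, 6.99 and 7.99 CPM at E12.5 and at 33.0, 31.2 and 43.1 CPM at E14.5. Every E14.5 library lay above the others (second step 2.19 ± 0.131; edgeR adjusted p = 1.19e-07), and the fall of 0.34 in the first step was not called in 7 of 13 alternatives. Eng, a co-receptor used with Acvrl1, was at 4.15, 3.49 and 71.2 CPM. The summed level of 8 endothelial markers was 7.43 to 10.4, 20.3 to 29.4 and 112 to 175 CPM at the 3 stages, of which Kdr gave a mean of 141 CPM at E14.5, while Cdh5, Pecam1 and Esam were at 2.18, 2.43 and 2.01 CPM there. Of the 6 of these markers tested, Kdr and Esam rose in both steps, and Cdh5, Pecam1, Tek and Tie1 were not called in either. The part of endothelial cells in the Acvrl1 and Eng values was not tested. Bambi, a decoy receptor induced by BMP signalling, was at 47.7, 36.4 and 35.2 CPM, then at 14.4, 13.2 and 14.4 CPM, and then at 7.64, 11.1 and 8.28 CPM. It fell in both steps without overlap, with a log2 fold change of -2.14 ± 0.152 in all (edgeR adjusted p = 1.13e-07).

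**Figure D3:**
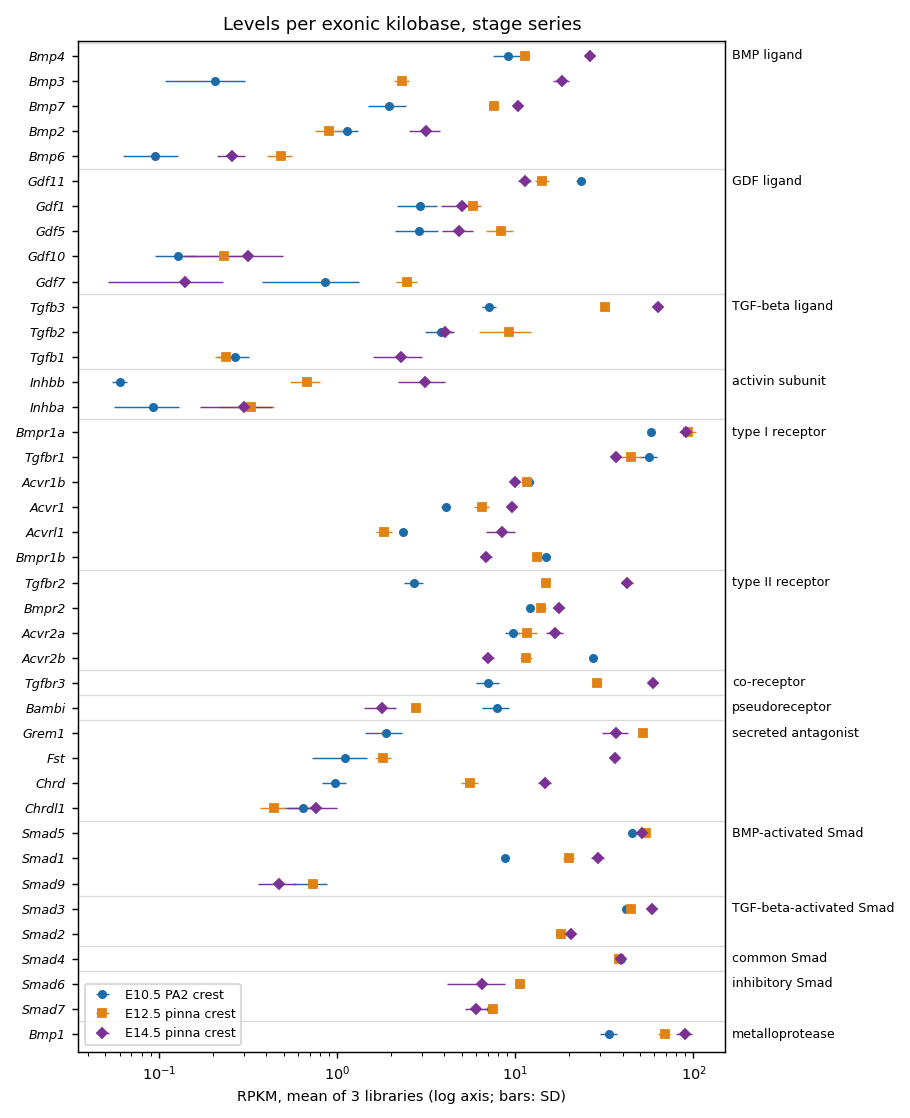
Mean RPKM (CPM per exonic kilobase; log axis, bars are the SD of 3 libraries) of 40 of the 41 tested members at the 3 stages, ordered within each role by the E14.5 level. The receptors Bmpr1a and Tgfbr3 and the ligand Tgfb3 reach 90.2, 59.4 and 63.1 RPKM at E14.5, and Grem1 and Fst, at 1.88 and 1.10 RPKM at E10.5, reach 36.7 and 36.2 RPKM.

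The Smads changed less. Smad1 was at 54.0, 53.6 and 56.1 CPM at E10.5, at 118, 135 and 120 CPM at E12.5 and at 194, 188 and 165 CPM at E14.5. It rose with no overlap in both steps, by 1.19 ± 0.0765 and 0.55 ± 0.0744 on the log2 scale (edgeR adjusted p = 1.61e-07 and 6.06e-05). Its partner Smad5 was the more abundant per kilobase at each stage, at 45.2 ± 0.378, 53.8 ± 2.26 and 51.2 ± 4.88 RPKM against 8.71 ± 0.221, 19.9 ± 1.50 and 29.1 ± 2.44 RPKM for Smad1. Smad9 was below 1 RPKM at all 3 stages. Smad3 rose in the second step from 246 ± 5.58 to 324 ± 11.9 CPM, Smad2 stayed between 154 and 184 CPM, and Smad4 lay between 131 and 152 CPM with no call in any pair of stages. Smad2 was called in the second step at 0.17 on the log2 scale, but not with total counts as the scaling, which moved the median of all genes by -0.12 in that step.

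Inhibitory Smads, which BMP and TGF-beta signals induce as feedback, fell late. Smad6 was at 33.5, 35.3 and 33.2 CPM at E10.5, at 35.4, 34.0 and 32.8 CPM at E12.5 and at 17.4, 15.5 and 29.2 CPM at E14.5. The third E14.5 library stood close to the earlier stages, and the second step was -0.72 ± 0.186 (edgeR adjusted p = 0.00541). Smad7 changed by -0.30 in that step, from 33.8 ± 1.07 to 27.3 ± 3.76 CPM, and the call was lost without E12.5 replicate 3 or E14.5 replicate 1 or 2 (edgeR adjusted p between 0.0516 and 0.0689).

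Several secreted antagonists were among the genes that rose most. Grem1, which binds Bmp2, Bmp4 and Bmp7, was at 5.69, 8.75 and 8.92 CPM at E10.5, at 208, 222 and 216 CPM at E12.5 and at 156, 175 and 126 CPM at E14.5. The E10.5 libraries lay far below the rest, and the step of 4.79 ± 0.167 on the log2 scale was a 27.6-fold rise (edgeR adjusted p = 2.17e-09), followed by -0.50 ± 0.135 (adjusted p = 0.00686). Chrd (chordin) was at 5.39, 5.66 and 7.16 CPM, then at 39.1, 31.9 and 33.2 CPM, and then at 92.5, 83.3 and 98.6 CPM. Its stages were apart, with log2 fold changes of 2.51 ± 0.123 and 1.40 ± 0.106 (edgeR adjusted p = 2.15e-08 and 7.03e-07), and 239 of its 6258 exonic bases are shared with Thpo on the other strand.

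Fst (follistatin), which neutralises activins, came last. It was at 2.68, 5.11 and 3.30 CPM at E10.5, at 5.46, 6.69 and 5.98 CPM at E12.5 and at 123, 113 and 127 CPM at E14.5. The E14.5 libraries lay far above the others (second step 4.32 ± 0.162; edgeR adjusted p = 5.21e-09). Nog (noggin) was not tested, with 0 to 0.0340 CPM in the stage libraries, below the 3-count floor of 0.0612 to 0.116 CPM. Chrdl2 was likewise at 0 to 0.0686 CPM. Chrdl1 was tested, at 4.33 ± 0.987, 2.98 ± 0.476 and 5.14 ± 1.56 CPM over the stages. It was called in the second step (0.78 ± 0.247; edgeR adjusted p = 0.0157), a call lost without some single libraries. Neither the first step nor the change over both was called (edgeR adjusted p = 0.0800 and 0.348). Bmp1, a metalloprotease named as a BMP that cleaves chordin and procollagen, rose from 210 ± 23.2 to 429 ± 33.7 and 556 ± 57.9 CPM.

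The promoters of Grem1, Chrd, Tgfbr2 and Bmp4 are shown because these genes all rose between E10.5 and E14.5. Grem1 rose in the first step, Bmp4 mainly in the second, and Chrd and Tgfbr2 in both. Each line holds the 250 bases upstream of the RefSeq start (GRCm38.p6), read 5′ to 3′ on the strand of the gene, with the letters GGCGCC, a motif bound by BMP-activated Smads, in capitals. Grem1 lies at chr2:113758649-113758898 (minus strand), Chrd at chr16:20732877-20733126 (plus), Tgfbr2 at chr9:116175364-116175613 (minus) and Bmp4 at chr14:46390670-46390919 (minus).
Grem1: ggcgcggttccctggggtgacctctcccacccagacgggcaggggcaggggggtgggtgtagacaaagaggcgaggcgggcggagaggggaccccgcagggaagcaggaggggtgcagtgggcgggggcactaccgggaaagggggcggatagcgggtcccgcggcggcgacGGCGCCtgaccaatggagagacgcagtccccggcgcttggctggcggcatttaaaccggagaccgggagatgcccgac
Chrd: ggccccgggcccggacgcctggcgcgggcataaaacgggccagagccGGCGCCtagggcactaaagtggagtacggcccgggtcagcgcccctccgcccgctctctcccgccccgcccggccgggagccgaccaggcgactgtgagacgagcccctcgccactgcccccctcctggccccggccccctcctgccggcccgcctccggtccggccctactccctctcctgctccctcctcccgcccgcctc
Tgfbr2: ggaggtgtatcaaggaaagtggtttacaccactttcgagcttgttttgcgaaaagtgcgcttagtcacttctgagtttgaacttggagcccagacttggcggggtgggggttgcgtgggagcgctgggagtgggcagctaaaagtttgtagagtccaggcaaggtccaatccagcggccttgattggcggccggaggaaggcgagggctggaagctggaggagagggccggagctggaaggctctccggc
Bmp4: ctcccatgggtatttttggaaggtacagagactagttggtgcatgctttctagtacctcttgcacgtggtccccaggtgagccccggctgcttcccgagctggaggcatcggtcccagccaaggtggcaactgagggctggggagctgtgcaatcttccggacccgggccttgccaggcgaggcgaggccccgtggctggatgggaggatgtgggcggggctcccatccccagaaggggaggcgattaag

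The windows of Grem1 and Chrd each held 1 copy of GGCGCC, and those of Tgfbr2 and Bmp4 held 0. Over all 27025 promoters of that length, 9.54% held the motif, which reads the same on both strands. Of the 33 members with an entry, 7 held it (Bmpr1a, Bmpr2, Chrd, Gdf1, Grem1, Smad9 and Tgfbr1), and of the 11 with an entry among those that rose at least 2-fold between E10.5 and E14.5, Chrd and Grem1 did. The palindrome GTCTAGAC, bound by Smad3 and Smad4, was found in 0.174% of all windows and in 0 members. The windows of Grem1 and Chrd were 72 and 78% G and C, against 58.4% for Tgfbr2 and 63.2% for Bmp4.

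Genes that respond to the pathway moved in both directions, and over both steps more of them fell than rose. Of 11 genes known as BMP targets, of which Smad6, Smad7 and Bambi are members, 4 rose and 4 fell in the first step, and 2 rose and 6 fell in the second, where 35.0% and 33.7%, and then 32.6% and 33.1%, of all genes did. Id1, an inhibitor of helix-loop-helix factors, rose from 51.6 to 80.8 CPM in the first step (log2 fold change 0.65; edgeR adjusted p = 0.0106), and Id2 rose in both steps, from 92.4 to 116 and 165 CPM. Msx2 fell from 11.3 to 0.968 and 0.135 CPM and Hey1 from 31.8 to 5.22 and 2.96 CPM. Of 9 tested TGF-beta targets, 2 rose and 3 fell in the first step, and 3 rose and 4 fell in the second. Between E10.5 and E14.5, 3 of the 11 BMP targets rose and 8 fell, with a median log2 fold change of -0.47. Over the same span, 3 of the 9 TGF-beta targets rose and 6 fell, with a median of -0.72. Of all genes, 42.0% rose and 40.0% fell there. Of the TGF-beta targets, Postn, a matrix protein, rose from 70.1 to 346 and 2220 CPM, and was called in both steps. By contrast, Tgfbi was at 217, 129 and 97.0 CPM and Skil at 138, 67.6 and 68.4 CPM over the stages.

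A mixed list of other pathway regulators was also counted, which holds ligand-binding proteins and proteases outside the cell, co-receptors, further ligands, and inhibitors and adaptors inside the cell. Of 36 tested, 25 rose and 3 fell in the first step (35.0% and 33.7% of all genes), and 20 rose and 7 fell in the second (32.6% and 33.1% of all genes), with median log2 fold changes of 0.93 and 0.37. Latent TGF-beta binding proteins, which store TGF-beta in the matrix, were among them, with Ltbp1 at 87.4, 192 and 509 CPM and Ltbp3 at 12.7, 80.3 and 150 CPM over the stages. Lrrc32, which anchors latent TGF-beta at the cell surface, rose from 1.18 to 16.6 and 51.5 CPM, and Htra1, a protease that acts on the pathway, from 2.01 to 10.3 and 107 CPM. Bmper, a BMP-binding protein, peaked at E12.5 (54.1, 155 and 24.7 CPM).

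The genotype series asked whether loss of HIRE1 changed the pathway at E10.5, when Hoxa2 changed by -3.74 ± 0.121 in PA2 and by -1.36 ± 0.105 in PA3 on the log2 scale (edgeR adjusted p = 1.56e-09 and 5.04e-05). No member was called. In PA2, 0 of 38 members passed the edgeR quasi-likelihood test, where 0.438% of all 14383 genes did. An unadjusted p under 0.05 was reached by 8 members and by 1233 of all genes, and DESeq2 called 1 member. In PA3, 0 members passed (0.216% of all genes), 3 had an unadjusted p under 0.05 (1400 of all genes), and DESeq2 called 0. The difference between the arches in the effect of the deletion gave 0 members (0.0487% of all genes), and 0 by DESeq2. There, 5 members and 794 of all genes had an unadjusted p under 0.05. The median log2 fold change of the members was -0.09 in PA2 and -0.10 in PA3, beside -0.01 and -0.00 over all genes, with 13 and 6 of 38 members above 0.

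Grem1 had the smallest p in PA2. It was at 10.1, 13.2 and 11.9 CPM in PA2 WT and at 6.73, 8.89 and 7.47 CPM in PA2 HIRE1del. The groups did not overlap, and the deletion gave 65.4% of the WT level (log2 fold change -0.61 ± 0.156). This was not called by edgeR (adjusted p = 0.171) and was called by DESeq2 (adjusted p = 0.0282). In PA3, Grem1 was at 13.0 ± 1.81 CPM in WT and 12.1 ± 1.88 CPM in HIRE1del, and the effects in the 2 arches differed by -0.51 ± 0.217 on the log2 scale (edgeR adjusted p = 0.887).

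Gdf1 and Bmpr1b came next in PA2. Gdf1 was at 3.76, 3.93 and 3.91 CPM in WT and at 5.49, 5.18 and 5.43 CPM in HIRE1del. These libraries did not overlap (0.47 ± 0.145; edgeR adjusted p = 0.324), and reads shared with other genes were not examined for Gdf1. Bmpr1b was at 61.7, 62.5 and 68.5 CPM in WT and at 76.9, 80.4 and 82.2 CPM in HIRE1del, again with no overlap (0.31 ± 0.101; edgeR adjusted p = 0.375). In PA3, the levels of both genes overlapped between genotypes. The summed level of the cartilage markers was 1200 to 1410 CPM in PA2 WT and 1480 to 1580 CPM in PA2 HIRE1del, with 0 of 5 tested markers called, and its relation to Bmpr1b was not tested. Among the BMP and TGF-beta targets 0 were called in either arch. Among 37 other regulators, Rgmb (75.1 ± 0.849 against 59.8 ± 3.15 CPM) and Fstl1, a follistatin-like secreted protein, were lower in PA2 HIRE1del, with edgeR adjusted p of 0.0135 and 0.0354.

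Bmp3, Bmp4 and Tgfbr2 had the smallest p in PA3. Bmp4 was at 51.7, 47.3 and 50.4 CPM in PA3 WT and at 42.2, 34.2 and 39.8 CPM in PA3 HIRE1del. All 3 deletion libraries lay below the WT libraries, at 77.7% of their level (-0.36 ± 0.109; edgeR adjusted p = 0.310), and in PA2 the genotypes overlapped at 19.6 ± 0.936 and 17.3 ± 3.16 CPM. Bmp3 was low in all, at 0.650, 1.43 and 1.51 CPM in PA3 WT and 0.337, 0.420 and 0.730 CPM in PA3 HIRE1del, and overlapped (-1.27 ± 0.375; edgeR adjusted p = 0.306). Tgfbr2 was at 32.5 ± 1.33 and 28.7 ± 1.73 CPM in PA3, with an edgeR adjusted p of 0.480. Between the arches, Gdf1, Grem1 and Bmp7 had the smallest p for a difference in the effect, each with an adjusted p of 0.887.

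PA3 and PA2 differed in more of the pathway. In WT embryos, 22 of 38 members were called, 14 higher and 8 lower in PA3, where 36.5% of all genes were called in either direction, and the median log2 fold change of the members was 0.09 beside -0.00 for all genes. This comparison uses the same WT libraries as the tests of the deletion. BMP ligands were on the higher side. Bmp4 was at 18.6, 20.4 and 19.7 CPM in PA2 WT and, as given above, at 47.3 to 51.7 CPM in PA3 WT, apart by 1.35 ± 0.112 on the log2 scale (edgeR adjusted p = 2.11e-06). Bmp2 was at 1.98 ± 0.745 CPM in PA2 and at 9.37, 8.61 and 7.43 CPM in PA3, with no overlap (2.08 ± 0.226; edgeR adjusted p = 1.74e-05). Bmp6 was at 1.65 ± 0.365 and 5.43 ± 0.638 CPM and Bmp7 at 27.0 ± 2.74 and 39.0 ± 2.96 CPM, both higher in PA3.

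**Figure D4:**
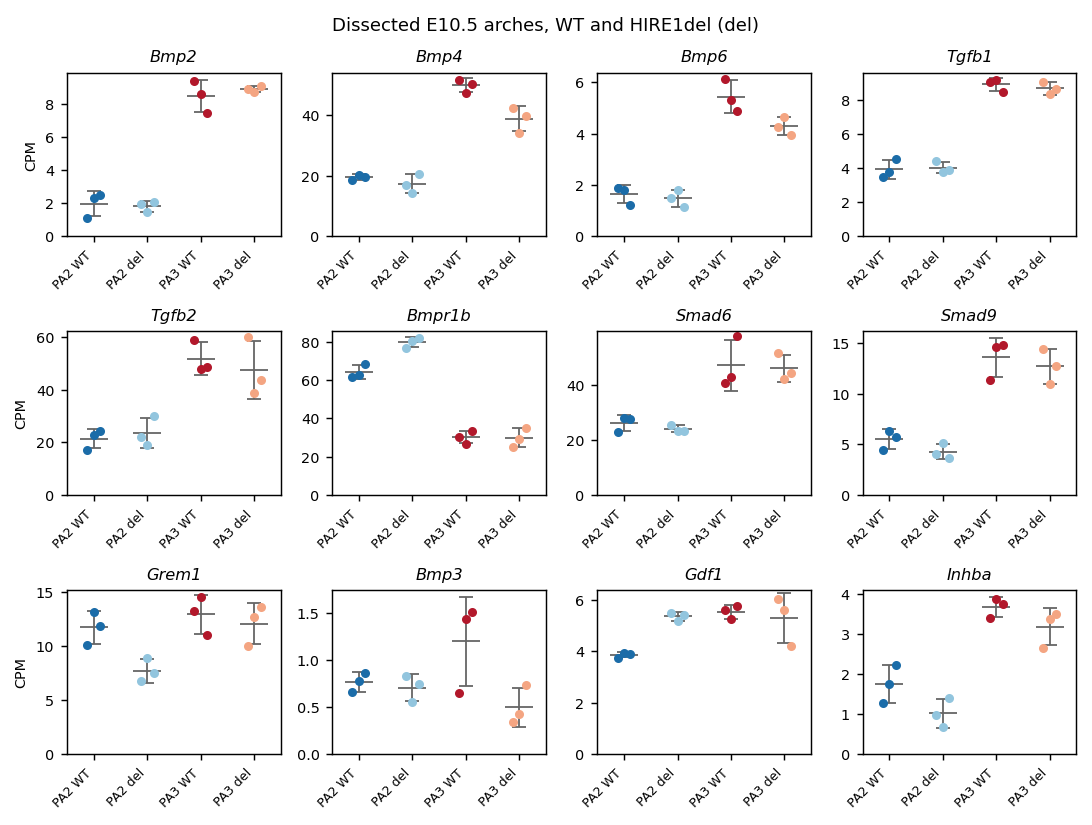
CPM from 0 (a separate range in each panel) for 12 members in the 12 libraries of the genotype series, with a point per library and a bar for the mean ± SD of 3 (del is HIRE1del). PA3 lies above PA2 for Bmp2, Bmp4, Bmp6, Tgfb1, Tgfb2, Smad6, Smad9 and Inhba and below it for Bmpr1b, while WT and HIRE1del are apart for Grem1, Bmpr1b and Gdf1 in PA2 and for Bmp4 and Bmp6 in PA3.

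Tgfb1 and Tgfb2 differed by arch, and Tgfb3 was not called. Tgfb1 was at 3.45, 3.75 and 4.56 CPM in PA2 WT and at 9.06, 9.18 and 8.46 CPM in PA3 WT, and Tgfb2 was at 17.2, 23.0 and 24.2 CPM and at 58.9, 47.7 and 48.5 CPM. Neither overlapped (1.18 ± 0.127 and 1.26 ± 0.188 on the log2 scale; edgeR adjusted p = 1.63e-05 and 2.12e-04). Tgfb3 was at 16.6 ± 1.59 and 16.9 ± 0.411 CPM, a difference of 0.03 ± 0.0921. Inhba, Gdf1, Acvrl1 and Acvr2a were also higher in PA3 and Gdf11 and Chrdl1 lower, with Acvr2a not called without PA3 WT replicate 1 (edgeR adjusted p = 0.0631).

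Bmpr1b, Bmpr1a and Tgfbr1, all type I receptors, were lower in PA3. Bmpr1b was at 61.7, 62.5 and 68.5 CPM in PA2 WT and at 30.3, 26.9 and 33.2 CPM in PA3 WT, which is 46.9% of the PA2 level (-1.09 ± 0.104; edgeR adjusted p = 5.70e-06). The arches did not overlap in either genotype. Bmpr1a was at 351 ± 22.3 and 280 ± 9.02 CPM and Tgfbr1 at 411 ± 29.9 and 325 ± 9.48 CPM, both lower in PA3, while Acvr1 and Acvr1b were not called. Bmpr2 was at 126 ± 9.51 and 128 ± 4.05 CPM and Tgfbr2 at 30.8 ± 2.38 and 32.5 ± 1.33 CPM, with overlapping libraries. Bambi was at 46.7 ± 2.08 and 59.4 ± 6.64 CPM, and its call (0.35 ± 0.119; edgeR adjusted p = 0.0346) was lost without any single one of the PA2 WT libraries or without PA3 WT replicate 1 or 3, at 0.0557 to 0.131.

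Among the Smads, Smad9 and the inhibitory pair were higher in PA3. Smad9 was at 4.41, 6.35 and 5.70 CPM in PA2 WT and at 11.3, 14.6 and 14.8 CPM in PA3 WT, with no overlap (1.30 ± 0.169; edgeR adjusted p = 7.04e-05). Smad6 was at 22.9, 28.2 and 27.6 CPM against 40.8, 42.9 and 57.8 CPM (0.85 ± 0.127; edgeR adjusted p = 2.22e-04), and Smad7 at 27.9 ± 0.469 against 35.4 ± 3.97 CPM. Smad5 was lower in PA3 (202 to 218 CPM against 258 to 283 CPM), as were Smad2 and Smad4 by smaller amounts. Per kilobase, Smad5 remained above Smad9 in both arches, at 36.4 ± 1.68 and 28.2 ± 1.15 RPKM against 1.02 ± 0.183 and 2.52 ± 0.367 RPKM.

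BMP targets were mostly higher in PA3. Beside the 36.5% of all genes called in either direction, 9 of the 11 BMP targets were higher and 0 lower in PA3 WT, including Id1 (66.8 against 110 CPM), Id4 (10.1 against 26.7 CPM) and Msx2 (15.7 against 26.2 CPM), and Atoh8 and Msx1 were not called. Read against the same 36.5%, 5 of 10 TGF-beta targets tested were higher and 1 lower, and of 37 other regulators 12 were higher and 11 lower, the latter including the BMP co-receptor Rgmb (75.1 against 33.1 CPM).

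**Figure D5:**
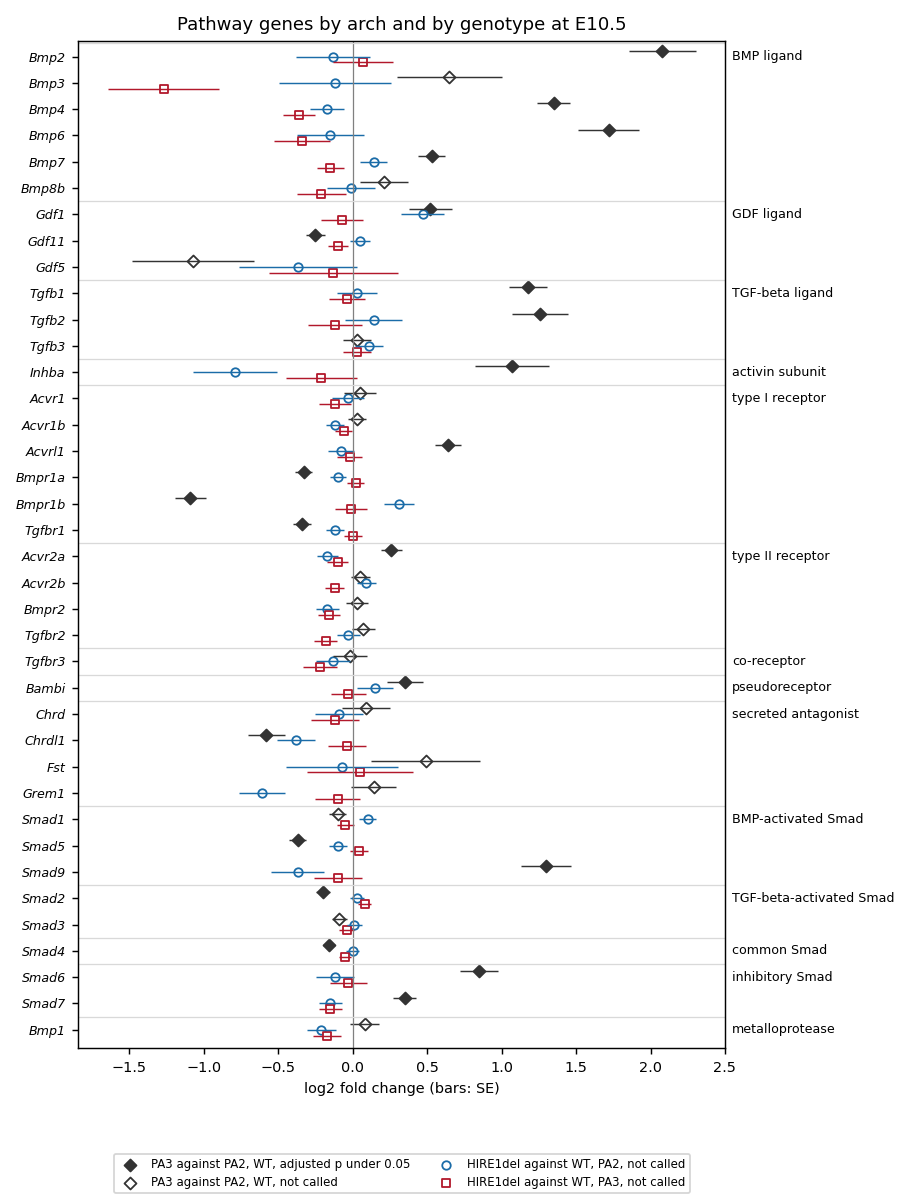
Log2 fold change (x axis, bars are the SE) of the 38 tested members, grouped by role, for PA3 against PA2 in WT (diamonds) and for HIRE1del against WT in PA2 (circles) and PA3 (squares), with filled symbols for an adjusted p under 0.05. Only the arch comparison has filled symbols, 14 to the right of 0 and 8 to the left.

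The makeup of the dissected arches also differed. Epithelial markers summed to 256 to 287 CPM in PA2 WT and to 574 to 741 CPM in PA3 WT, with 6 of 8 higher and 1 lower in PA3. Endothelial markers summed to 291 to 305 and 352 to 379 CPM (5 of 7 tested were higher), blood markers to 1540 to 2410 and 12400 to 24200 CPM (6 of 8 higher), and neuronal markers to 77.7 to 81.3 and 177 to 252 CPM (8 of 8 higher). Markers of crest mesenchyme summed to 1080 to 1210 CPM in PA2 and 714 to 912 CPM in PA3, with 5 of 8 lower and Prrx2 higher (40.6 against 63.8 CPM). The part of these cells in the arch differences of Bmp2, Bmp4, Bmp6, Tgfb1, Acvrl1, Smad6, Smad9 and the BMP targets was not tested.

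Among the BMP ligands reported here, Bmp4 had the highest level per kilobase in PA3 WT, at 22.2 ± 1.00 RPKM. Bmp7 followed at 9.71 ± 0.737 and Bmp2 at 2.38 ± 0.275 RPKM, and these 3 did not overlap. In PA2 WT, Bmp4 (8.71 ± 0.417 RPKM) and Bmp7 (6.73 ± 0.681 RPKM) were closer, and Bmp2 was at 0.556 ± 0.210 RPKM. Nog stayed at or below 0.322 CPM in every genotype library. Bmp8b was at 6.96 to 8.10 CPM in the 4 genotype groups and at 0.0564 to 0.0796 CPM in the 3 stage groups, in tables that were normalised separately, with 339 and 133 of its 3880 exonic bases shared with Gm17244 and Ppie on the other strand. Bmp10, Gdf2, Gdf3, Gdf15, Bmp8a, Bmp15, Gdf9, Acvr1c and Chrdl2 were tested in neither series and lay below 1 CPM in every library.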

How the data were processed

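Mouse RNA-seq of 9 stage and 12 genotype libraries was analysed. The authors aligned 50-base reads to GRCm38/mm10 with QuasR 1.34.0 (Rhisat2, spliced), counted alignments over the UCSC known genes (package version 3.4.7) in the opposite orientation and deposited raw counts per gene. The protocol calls the libraries unstranded, so that reads of overlapping genes on the other strand cannot be told apart. The deposited tables also give the exonic length used for RPKM, and 0 value columns were left unused.

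Genes that reached 1 CPM in 2 or more libraries were tested in R 4.3.3 with the two-sided edgeR 4.0.16 quasi-likelihood test, 1 model per table with a mean per group and TMM scaling (0.946 to 1.04). The study's own filter asked for 1 CPM in the replicates. The Benjamini-Hochberg adjustment ran over all tested genes, and a call needed an adjusted p under 0.05. SEs were derived from the F statistic, folds are moderated by edgeR, and means ± SD are of CPM or RPKM (n = 3). DESeq2 1.42.0, other scalings and filters, a replicate block and leaving out each library were the alternatives. The scripts were tested on simulated data. Replicates of a group differed by more than counting noise (chi-square per degree of freedom 7.11 to 50.5). Positions and overlaps are from GENCODE M21 (GRCm38) and promoters from RefSeq (GRCm38.p6). The floor of 3 counts covers counting error only, whereas the SEs and SDs include differences between replicates.

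In the genotype table, deviations from the group mean correlated between PA2 and PA3 libraries of the same genotype and number (r = 0.213 to 0.382). Libraries of the same number but different genotype gave r from -0.202 to 0.276, which overlaps that range. For each PA2 library, however, the PA3 library of its genotype that correlated best had the same number. Across genotypes the best match had the same number only for replicate 3. The main fit did not pair libraries, and the PA2 and PA3 pairs entered only an alternative, the replicate block by embryo pool. Stage libraries of the same number gave r from -0.312 to 0.202.

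The members and gene lists were chosen with earlier results of these data known. Key ligands, receptors and inhibitors were named whatever their test. Up to 8 rises and 8 falls per stage comparison were named by size of change among calls with a 2-fold change, a mean log2 CPM of 1 or more and ranges apart. Genotype and arch comparisons named all calls or the 3 smallest p, and the remaining genes were named by role after their values were seen. A few symbols are not reported by name here, although counts over members and lists may include them.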

Additional observations from a re-analysis of the deposited data

How the results depend on the processing

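For the 132 member values that were called or, with no calls, had the 3 smallest p in a comparison, 1669 recomputed values kept their direction and their side of the threshold, 62 kept the direction but lost the call, 1 gained it and 0 reversed. Members outside these values could also gain a call, and such gains are in the counts that follow. Calls per comparison ranged over the alternatives from 23 to 31 (main 29) for E12.5 against E10.5, from 29 to 36 (main 34) for E14.5 against E12.5, from 29 to 38 (main 38) for E14.5 against E10.5 and from 21 to 24 (main 22) for PA3 against PA2. With 1 CPM required in every library, the members with a 2-fold change between E10.5 and E14.5 were 16 in place of 25, because 33 rather than 41 members were tested. With total counts as the scaling, 9 members rose and 4 fell at least 2-fold from E12.5 to E14.5 in place of 10 and 2. The DESeq2 test called 1 member (Grem1) in PA2 HIRE1del in place of 0, and over all genes 164 in place of 63 there, 93 in place of 31 in PA3 and 27 in place of 7 for the difference between arches, of which the cause was not tested.

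With a replicate block, 29, 34 and 38 members were called in the 3 stage comparisons, 0 in each genotype comparison and 23 between the arches. Over all genes the replicate block gave 105 calls in PA2 and 54 in PA3. With the replicate block by embryo pool, 23 members were called between the arches, including all 22 of the fit without it, and 0 for the difference in effect, where 26 genes were called in place of 7. With the replicate block, 17 members rose and 2 fell at least 2-fold from E10.5 to E12.5, in place of 16 and 2. Calls of single genes outside the members were not examined with a block. Depth limits the genes near 1 CPM, such as Gdf7, Bmp6 and Bmp3 at E10.5, and 3 libraries per group limit small changes.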
